A study of Macaca mulatta with 449 samples.

Results

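The data describe 7 genes of ependymal cells and motile cilia across the rhesus macaque brain, namely FOXJ1, DNAH9, DNAI1, CFAP126, TEKT1, CFAP161 and CFAP100. Members were found by gene symbol in the table of gene counts, where each symbol matched 1 of the 30807 rows. Their Ensembl identifiers were ENSMMUG00000003533 (FOXJ1), ENSMMUG00000018539 (DNAH9), ENSMMUG00000020777 (DNAI1), ENSMMUG00000008251 (CFAP126), ENSMMUG00000021519 (TEKT1), ENSMMUG00000021143 (CFAP161) and ENSMMUG00000004192 (CFAP100). FOXJ1, TEKT1, CFAP161 and CFAP100 had their highest mean level of all sub-regions in the corpus callosum (CC), and the last 3 had their second-highest in the caudate nucleus (CN). DNAH9, DNAI1 and CFAP126 had other orders.

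The ependyma is a single layer of epithelial cells that lines the ventricles of the brain and the central canal. Its cells bear tufts of motile cilia that beat and move cerebrospinal fluid along the ventricle wall. A motile cilium is built on a ring of microtubule doublets around a central pair, and dynein motor arms on the doublets slide them past each other. FOXJ1 is the transcription factor that switches on genes of motile cilia. DNAH9 is a heavy chain and DNAI1 an intermediate chain of the outer dynein arm. TEKT1 is a tektin, a filament protein inside the doublets, and CFAP161 and CFAP126 (Flattop) also belong to the doublet. CFAP100 is linked to the inner dynein arms. The lateral ventricle runs under the CC and along the CN, while the putamen (PUT), the other main nucleus of the dorsal striatum, does not touch it.

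RNA was sequenced after removal of ribosomal RNA from 1 small piece of tissue per region and animal. Of 416 RNA samples 408 were analysed here, 51 sub-regions from 8 healthy animals each, of which 31 sub-regions are cortical and 20 are not. The animals were Rhesus 2 and 3 (male, 10 years), 7 (male, 4 years), 8 (male, 3.8 years), 4 (female, 3.2 years), 10 (female, 5 years), 6 (female, 10 years) and 11 (female, 9.8 years). The 4 of 5 years or less are called young here and the other 4 mid-aged, and no animal was treated. Because each piece is a mixture of cells, fewer cells of a type and less RNA per cell cannot be told apart.

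Levels are given as CPM, counts set to a common library total after scaling by the trimmed mean of M values (TMM), and allow a gene to be compared between samples, not with another gene. Libraries held 7784678 to 31083490 counts, with a median of 10698602. Marker lists were as the labels imply in CC, where the summed level of 8 oligodendrocyte genes was 93166 to 124018 CPM against 2575 to 3511 CPM in cortex. Some libraries went against their labels. SLC17A7, a gene of cortical excitatory neurons, had a median under 10 CPM in 9 non-cortical sub-regions, and 5 of their libraries held over 50 CPM. These were the hypothalamus (HTHA) of Rhesus 6 with 473 CPM, the nucleus accumbens (ACb) of Rhesus 10 with 232 and of Rhesus 11 with 59.4, the putamen (PUT) of Rhesus 3 with 111 and the substantia nigra (SN) of Rhesus 4 with 95.3. The other libraries had 0.950 to 5.09 CPM in HTHA, 1.16 to 28.3 in ACb, 0.223 to 4.02 in PUT and 0 to 36.5 in SN. CC libraries held 5.92 to 77.5 CPM. In the medulla oblongata (MO) library of Rhesus 6 the summed level of 10 neuronal genes was 458 CPM, against 5790 to 10713 CPM in the others. Fits on these 4 sub-regions and on MO, and their relations over animals except in PUT and SN, where none was computed, are also given without those animals. Without them the mean FOXJ1 level was 6.94 CPM in MO (7.54 with all animals), 4.78 in SN (5.40), 4.17 in HTHA (3.95), 1.77 in ACb (1.92) and 1.45 in PUT (1.40).

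FOXJ1, the regulator, ranged in CC from 5.24 to 22.9 CPM over the 8 animals, with a median of 17.6. In CN its range was 1.67 to 15.6 CPM with a median of 4.46, and in cortex the animals' means over 31 sub-regions ran from 0.616 to 1.50 CPM. Every CC library and every CN library was therefore above every animal's cortical mean, while CC and CN overlapped. Single cortical libraries reached 3.92 CPM, and CC exceeded all cortical sub-regions of the same animal in 8 of 8 animals and CN in 7. By mean level (± SD, n = 8) the order was CC 16.6 ± 6.64, MO 7.54 ± 4.42, CN 5.80 ± 4.48, SN 5.40 ± 3.07, HTHA 3.95 ± 2.79 and hippocampal field CA3 3.46 ± 1.68. The next were CA1 with 3.29 ± 3.45, the dentate gyrus (DG) with 3.28 ± 1.85 and the pituitary (PIT) with 3.09 ± 1.05. All neighbours in this order of 20 sub-regions and the cortex overlapped over animals. CC was the highest of the 51 sub-regions in 6 animals, SN in Rhesus 4 and MO in Rhesus 11.

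TEKT1, the tektin, had 1.94 to 23.3 CPM in CC (median 14.2), 4.42 to 22.8 CPM in CN (median 8.77) and 2.39 to 5.32 CPM in the animals' cortical means. The lowest CC library was below the cortex of its animal, and the other 7 were above. TEKT1 also differed from FOXJ1 in where it was scarce. Its mean was 0.120 ± 0.0820 CPM in the vermis of the cerebellum (CBV), from 0 to 2 counts per library, 0.168 CPM in the cerebellar cortex (CBC), 0.471 in the globus pallidus (GP) and 0.53 in SN. Between these ends lay DG with 6.29 ± 1.97 CPM, CA3 with 6.21 ± 1.75, ACb with 6.14 ± 2.34 and PUT with 4.81 ± 1.96. CC was the highest sub-region for TEKT1 in 4 animals, CN in 2, CA3 in 1 and the ventromedial prefrontal cortex (vmPFC) in 1.

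CFAP161, of the doublet wall, was the most restricted member. It had 2.39 to 17.8 CPM in CC (median 8.08, 21 to 190 counts per library) and 0.351 to 7.09 CPM in CN (median 1.85, 4 to 70 counts). In cortex it had 74 counts in all, and 202 of the libraries had none, and the mean was 0.0235 ± 0.0272 CPM. CC was its highest sub-region in 7 of 8 animals, with CA3 the highest in Rhesus 11. Below CC and CN came CA3 with 1.37 ± 1.21 CPM, the amygdala (AMY) with 1.23 ± 0.974, PIT with 1.20 ± 0.545, HTHA with 1.10 ± 1.33, CA1 with 0.998 ± 1.26 and DG with 0.652 ± 0.327. In PUT and in 7 cortical sub-regions none of the 8 libraries had a count, and a limit of 3 counts per library corresponds to 0.325 CPM in PUT. Against that limit the mean level was at least 28.6-fold higher in CC and at least 8.85-fold higher in CN.

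CFAP100, of the inner arms, had 5.70 to 54.9 CPM in CC (median 24.5), 2.20 to 29.2 CPM in CN (median 7.92) and 1.07 to 1.71 CPM in the cortical means, so that both sites again lay above the cortical means. Single cortical libraries reached 4.84 CPM, below every CC library, and CN exceeded all cortical sub-regions of its animal in 7 of 8 animals. ACb followed with 5.90 ± 2.37 CPM, then AMY with 5.26, HTHA with 4.88 ± 2.61, CA1 with 4.79 ± 3.96 and CA3 with 4.56 ± 2.26. At the other end PIT had 0.213 ± 0.163 CPM and the pons (PON) 0.274. CC was the highest sub-region in 5 animals, CN in 2 and CA3 in 1.

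**Figure D1:**
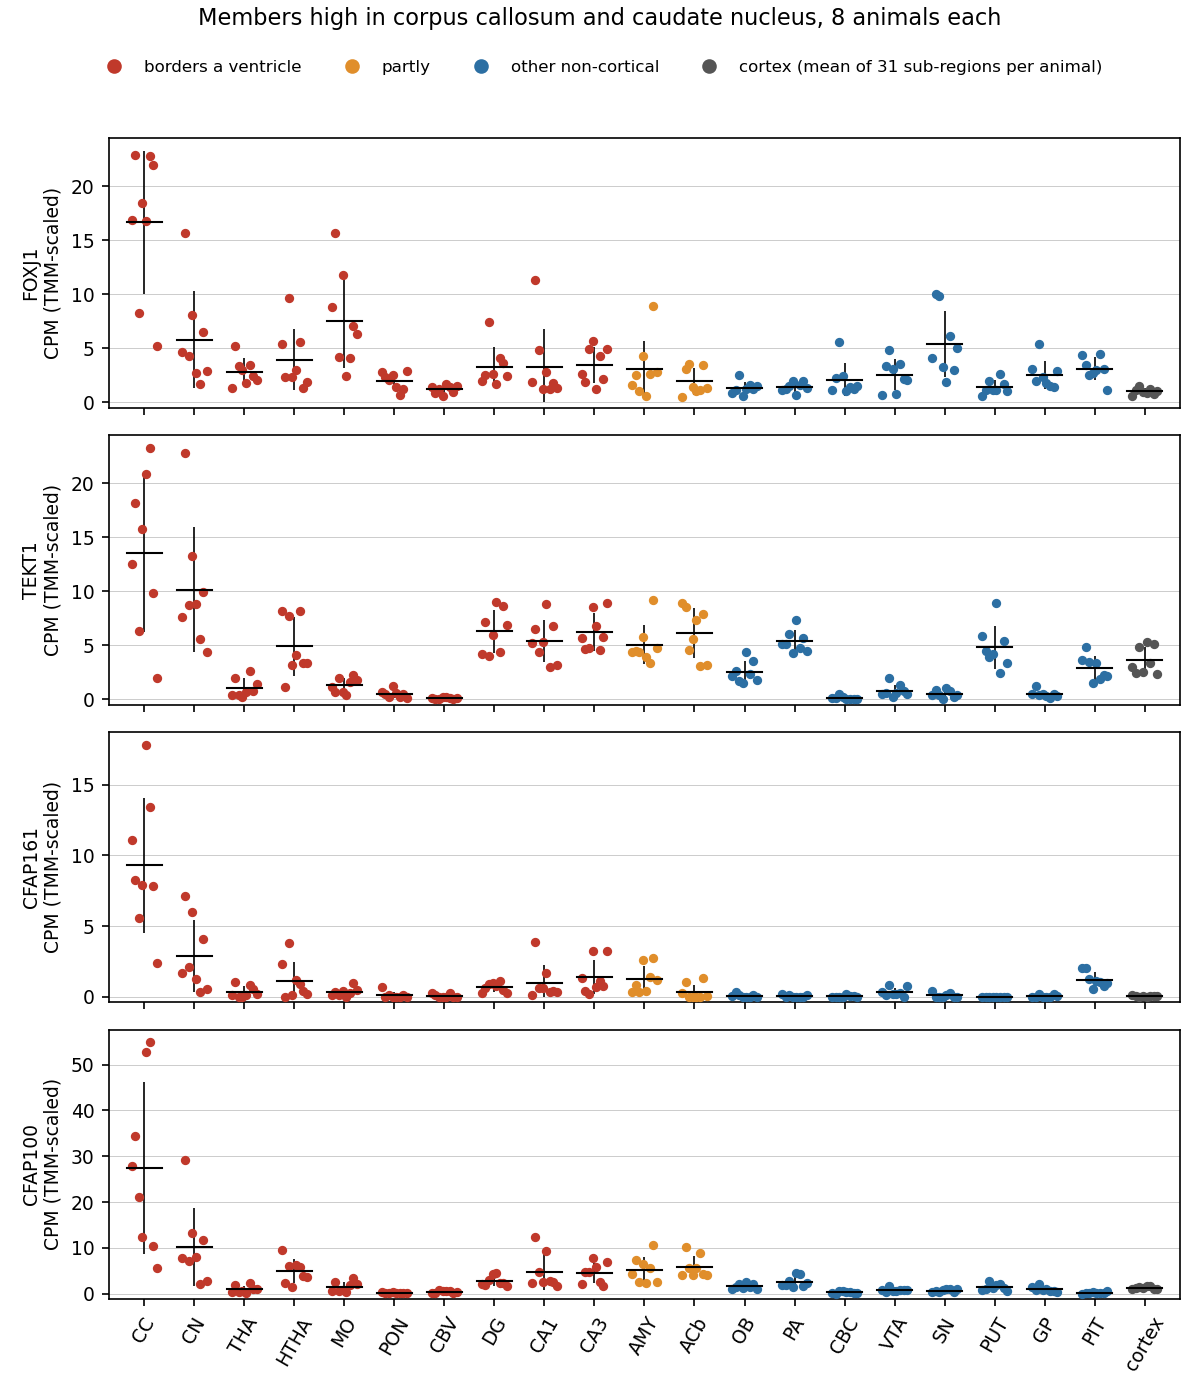
CPM (linear axis) of FOXJ1, TEKT1, CFAP161 and CFAP100 in the 20 non-cortical sub-regions and the cortex. Each point is 1 animal, bars are means over 8 animals and lines are ± SD, cut at 0. The CC bar is the tallest in all 4 panels, at 16.6, 13.6, 9.29 and 27.4 CPM, and its points are widely scattered.

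The outer arm genes were found almost everywhere. DNAH9, the heavy chain, was highest in the thalamus (THA), where it ranged from 44.5 to 76.1 CPM with a median of 52.3, and in DG, from 33.1 to 71.7 CPM with a median of 48.5. CA1 followed with 36.1 ± 4.87 CPM and CA3 with 35.9 ± 6.83. These 4 sub-regions did not overlap with the next, AMY, at 20.8 ± 4.19 CPM. CC had 16.6 ± 5.18 CPM, close to the 12.3 ± 2.70 CPM of cortex, and CN had 11.0 ± 3.65. GP was lowest with 6.03 ± 1.77 CPM. THA was the highest sub-region in 5 animals and DG in the other 3.

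DNAI1, the intermediate chain, had its highest levels in SN, from 179 to 363 CPM with a median of 241, and in GP, from 153 to 380 CPM with a median of 238. Each was the highest sub-region in 4 animals. Cortex had 132 ± 20.2 CPM and CN 123 ± 21. CC, at 76.8 ± 15.9 CPM, was the second-lowest site and was below cortex in 8 of 8 animals. PIT had 18.7 to 40.6 CPM, below every CC library, and was the lowest sub-region in all 8 animals.

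CFAP126, Flattop, was the most even member. Its mean was 28.2 ± 5.21 CPM in CN, 27.2 ± 6.40 in cortex, 18.2 ± 3.99 in CC, 13.6 ± 4.02 in GP, 13 ± 4.87 in SN and 11.6 ± 2.89 in PIT. The highest sub-region was a cortical one in all 8 animals.

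**Figure D2:**
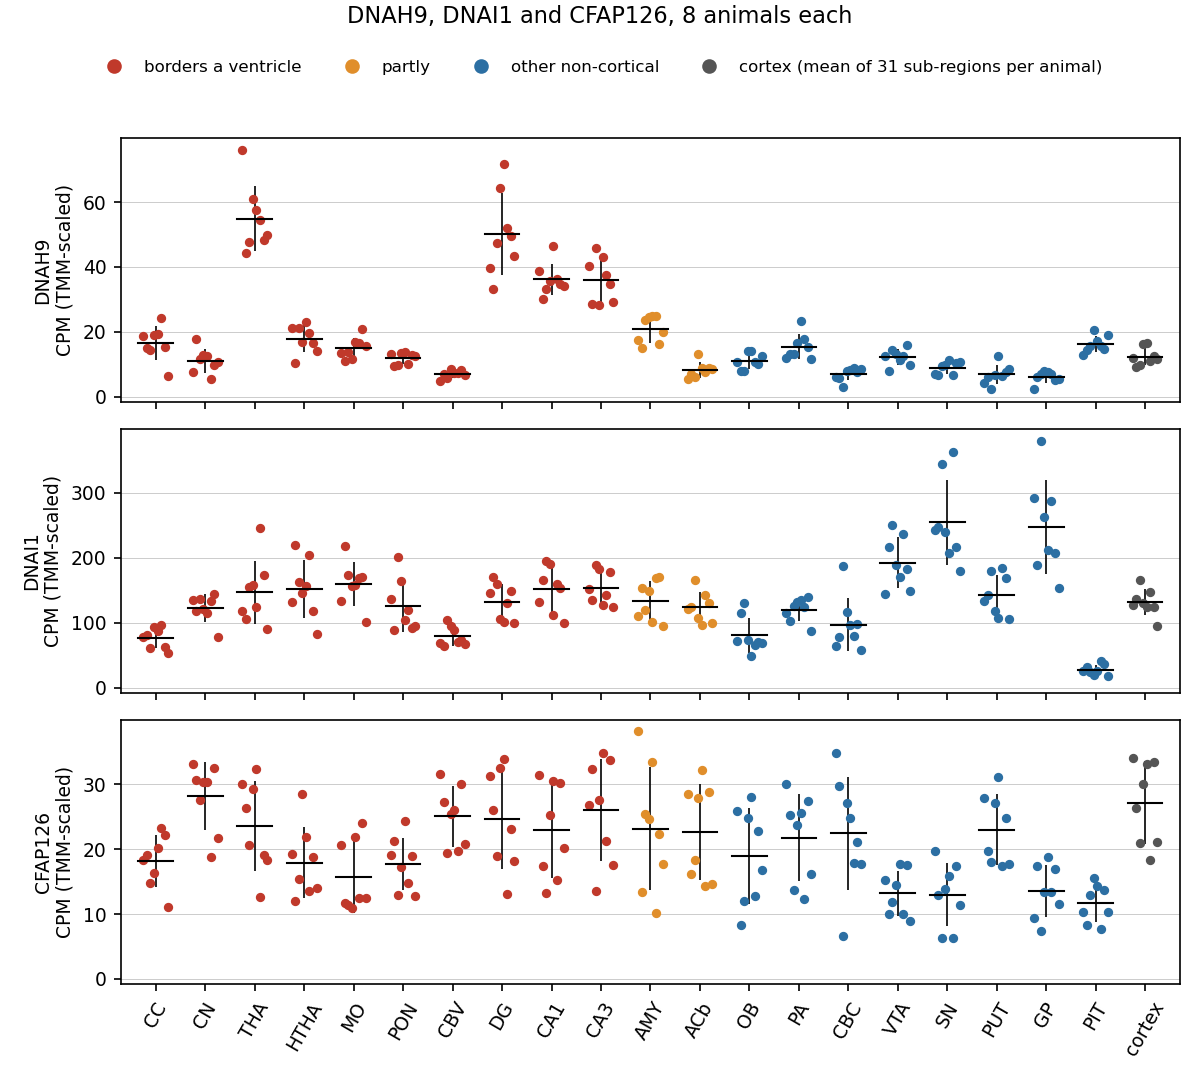
CPM (linear axis) of DNAH9, DNAI1 and CFAP126 in the same 20 non-cortical sub-regions and the cortex, with points for animals, bars for means over 8 animals and lines for ± SD. DNAH9 is tallest in THA (55.0 CPM) and DG (50.1), DNAI1 in SN (255) and close behind in GP, and none of the 3 is tallest in CC.

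Each non-cortical sub-region was compared with the sum of the 31 cortical sub-regions of the same animal, with the animal as a block, in edgeR's quasi-likelihood test across all genes. A gene is called here when its Benjamini-Hochberg adjusted p was under 0.05 and its level differed by more than 2-fold. In CC against cortex 4 of 7 members were called, all higher. CC differs from cortex in a large share of its genes, since 44.5% of all genes tested were called and 18.9% were called higher. The log2 fold change was 3.89 ± 0.30 (SE) for FOXJ1 (adjusted p = 8.21e-08) and 3.97 ± 0.30 for CFAP100 (6.2e-08), each higher in 8 of 8 animals with no overlap. TEKT1 rose by 1.67 ± 0.33 (adjusted p = 0.000479) in 7 of 8 animals, and its groups overlapped. CFAP161 gave 8.49 ± 0.43, resting on 74 counts in cortex. Against cortex that gene passed the filter on low counts only through the group where it was high, so its calls under that filter are a description. The study's detection rule (a count above 1 in at least 3 samples) kept it in every comparison with cortex, since 7 of 8 cortical sums were above 1 count, and gave 8.42 ± 0.42 in CC (edgeR adjusted p = 4.52e-10). Among the broad members DNAI1 was lower in CC by less than the 2-fold limit, at -0.87 ± 0.10 (adjusted p = 4.13e-06), as was CFAP126 at -0.67 ± 0.12 (0.000257), and DNAH9 stood at 0.31 ± 0.16 (0.102).

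In CN against cortex the same 4 members were called higher, where 18.4% of all genes were called and 9.02% called higher. FOXJ1 rose by 2.31 ± 0.32 (adjusted p = 2.81e-05), TEKT1 by 1.38 ± 0.26 (0.000425) and CFAP100 by 2.63 ± 0.35 (1.7e-05), each in 8 of 8 animals. CFAP161 gave 6.68 ± 0.68 on the same 74 cortical counts, and 6.63 ± 0.67 (adjusted p = 5.74e-07) under the detection rule. DNAH9, DNAI1 and CFAP126 differed by -0.19 ± 0.16, -0.10 ± 0.06 and 0.05 ± 0.07, and none was called. Both comparisons share the cortical samples. When animals were left out singly, the 4 calls were kept in 8 of 8 fits in both, between 3.76 and 4.10 for FOXJ1 in CC and between 2.06 and 2.53 in CN.

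Genes of other cells moved too. Of 7 choroid plexus genes, 6 were called higher in CC against cortex, and their summed level was 41.4 to 355 CPM in CC, highest in Rhesus 10, against 11.9 to 26 CPM in cortex, 13.1 to 26 CPM in CN and 8.03 to 18.8 CPM in PUT. The transporter gene SLC13A4 had 9.32 to 107 CPM in CC against 0.701 to 3.38 in cortex. KL, at 6.76 to 78.7 CPM in CC against a mean of 8.32 in cortex, was the one not called. All 8 CC libraries were above the cortical range in this sum, with 41.4 to 102 CPM in the 7 other than Rhesus 10. The choroid plexus also bears cilia, and the part of its cells in the CC result was not tested. In Rhesus 10 the summed CC level of FOXJ1, TEKT1, CFAP161 and CFAP100 was 49.9 CPM, within the 15.3 to 114 CPM of the other animals. The choroid plexus sum was also raised in THA, at 62.0 to 128 CPM, in PIT, at 49 to 121 CPM, and in CBV, at 45.8 to 100.4 CPM. It covers the 7 of 12 listed genes that had a row, of which KL and CLIC6 had means of 8.32 and 5.45 CPM in cortex. Whether a raised sum reflects choroid plexus cells was not tested. In the olfactory bulb (OB) the choroid plexus sum was 57.1 to 137 CPM, and in the ventral tegmental area (VTA) 24.8 to 71.7 CPM. Single libraries elsewhere were also high, among them CA3 of Rhesus 8 (120 CPM, with 4.32 CPM of FOXJ1 in a range of 1.19 to 5.62). In DG these were Rhesus 4 (101 CPM, with 7.39 of FOXJ1, the highest of DG) and Rhesus 8 (85.4, with 4.09). Others were AMY of Rhesus 10 (63.0, with 8.93, the highest of AMY) and MO of Rhesus 6 (60.1, with 11.7 in a range of 2.42 to 15.7). In the entorhinal and perirhinal cortex (PA) the sum was 107 CPM in Rhesus 8 and 61.8 in Rhesus 11. No PA library held more than 1.93 CPM of FOXJ1. In CC all 8 oligodendrocyte genes (MBP among them) were called higher, all 10 neuronal genes (SNAP25 and MAP2) lower, 3 of 3 microglial genes (CSF1R and P2RY12) higher, 3 of 9 astrocyte genes (GFAP and AQP4 among them) higher and 4 lower, and 2 of 9 vessel and meningeal genes higher and 1 lower, with FLT1 (-0.06 ± 0.12) and DCN (0.26 ± 0.08) not called. Of 8 genes of the subventricular zone, 1 was called higher and 2 lower, and SOX4 (0.98 ± 0.14) was not called.

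In CN against cortex genes of other cells moved as well. Of the neuronal genes 6 of 10 were called lower and 1 higher, and their summed level was 5879 to 7179 CPM in CN against 13280 to 14140 CPM in cortex. The oligodendrocyte sum was 3616 to 8143 CPM against 2575 to 3511, with 3 of 8 genes called higher. The microglial sum was 111 to 214 CPM against 54.1 to 84.3, with 2 of 3 higher. Of the astrocyte genes 1 of 9 was called higher, of choroid plexus genes 3 of 7 higher and 1 lower, of genes of the subventricular zone 4 of 8 higher and 2 lower, and of vessel and meningeal genes 3 of 9 higher and 1 lower. Their part in the CN result was not tested.

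CC and CN, both beside the lateral ventricle, were compared directly. Of 7 members 3 were called, all higher in CC, with 37.3% of all genes called and 16.8% higher. FOXJ1 was higher in CC by 1.56 ± 0.29 (adjusted p = 0.000253) and CFAP161 by 1.76 ± 0.45 (0.00307), both in 8 of 8 animals. CFAP100 was higher by 1.29 ± 0.44 (adjusted p = 0.0167) in 6 of 8 animals, and without Rhesus 8 it fell to 0.92 and under the 2-fold limit. TEKT1 did not differ detectably, at 0.27 ± 0.28 (adjusted p = 0.379), and was higher in CC in 4 of 8 animals. DNAI1 (-0.75 ± 0.11) and CFAP126 (-0.71 ± 0.13) were lower in CC by less than 2-fold. The ranges of all 7 genes overlapped between CC and CN. The oligodendrocyte sum was 93166 to 124018 CPM in CC and 3616 to 8143 in CN. The astrocyte sum was 5646 to 8192 and 3370 to 4889 CPM, and the neuronal sum 305 to 986 and 5879 to 7179 CPM. The choroid plexus sum was 41.4 to 355 and 13.1 to 26 CPM. The part of these cells was not tested.

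CN against PUT sets a nucleus on the ventricle against its neighbour away from it, and the pair differs in few genes: 4.34% of all genes were called, 2.82% higher in CN. Of the 6 members tested 2 were called, both higher in CN. FOXJ1 had 1.67 to 15.6 CPM in CN and 0.608 to 2.59 CPM in PUT (median 1.12). Its log2 fold change was 1.86 ± 0.36 (adjusted p = 0.00116), higher in 7 of 8 animals. CFAP100 had 2.20 to 29.2 CPM in CN and 0.582 to 2.73 CPM in PUT (median 1.27), a log2 fold change of 2.60 ± 0.37 (adjusted p = 8.86e-05), also in 7 of 8 animals. In both genes the lowest CN library, that of Rhesus 8, lay inside the PUT range. TEKT1 reached 1.00 ± 0.22 (adjusted p = 0.00293), on the 2-fold limit and not called, and was called in 4 of 8 fits that left out an animal. Without Rhesus 3, whose PUT library held SLC17A7, FOXJ1 stood at 1.53 and CFAP100 at 2.24, both still called, and TEKT1 at 0.78, not called. DNAH9 stood at 0.70 ± 0.21, CFAP126 at 0.29 ± 0.08 and DNAI1 at -0.21 ± 0.07. CFAP161 was untested under the filter for want of counts in PUT, and was counted in 8 of 8 CN libraries. Under the detection rule it was called higher in CN. It passed that rule through CN alone, since no PUT library held a count, so this call is a description. Of the astrocyte genes 2 of 9 were called higher in CN and 0 lower. These were GFAP, at 462 to 855 CPM in CN against 92.0 to 523 CPM in PUT (1.71 ± 0.20), and AGT, at 264 to 333 CPM against 90.6 to 235 CPM with no overlap. The astrocyte sum was 3370 to 4889 CPM in CN and 2805 to 4101 CPM in PUT, and its part in the result was not tested. Oligodendrocyte genes went the other way, with 8 of 8 lower in CN. By edgeR 0 of 3 choroid plexus genes tested were called, 0 of 5 of the subventricular zone, 0 of 10 neuronal, 0 of 3 microglial and 0 of 7 vessel and meningeal genes. At an unadjusted p under 0.05 these lists had 2, 3, 6, 3 and 1 genes, and DESeq2 called 0 in each.

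ACb, the ventral part of the striatum, was compared with both. Against ACb, CN had 2 members called of 7, with 3.77% of all genes called. FOXJ1 was higher in CN by 1.49 ± 0.29 (adjusted p = 0.00386) and CFAP161 by 3.22 ± 0.50 (0.0012), each in 8 of 8 animals. In ACb against PUT 1 of 6 was called, with 8.23% of all genes called, namely CFAP100, which was higher in ACb by 2.03 ± 0.23 (adjusted p = 2.84e-05). CFAP100 ranged there from 4.13 to 10.2 CPM, above every PUT library, while FOXJ1 differed by 0.38 ± 0.29 (adjusted p = 0.33). Without Rhesus 10 and 11 the calls against ACb held, with FOXJ1 at 1.66 and CFAP161 at 3.96 in CN, as did CFAP100 in ACb against PUT, at 1.99, and at 1.85 without Rhesus 3.

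In HTHA against THA, which share the third ventricle, 3 of 6 members were called, with 11.8% of all genes called. TEKT1 was higher in HTHA by 2.23 ± 0.49 (adjusted p = 0.00328) and CFAP100 by 2.31 ± 0.47 (0.00215), while DNAH9 was lower by 1.61 on the log2 scale (-1.61 ± 0.11, 1e-06). Without Rhesus 6 the 3 were still called, at 2.00, 2.33 and -1.66. The choroid plexus sum was 15.1 to 32 CPM in HTHA and 62.0 to 128 CPM in THA, and the neuronal sum 4327 to 10274 CPM against 8090 to 11325 CPM. Their part in the result was not tested. FOXJ1 differed by 0.37 ± 0.34 (adjusted p = 0.412). CBV borders the fourth ventricle and CBC does not, and between them edgeR called 0 of 4 members tested, with 0 at an unadjusted p under 0.05 and 0 called by DESeq2, where 0.225% of all genes were called.

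A wider split set the sum of the 10 sub-regions that border a ventricle by textbook anatomy (CC, CN, THA, HTHA, MO, PON, CBV, CA1, CA3 and DG) against the sum of 8 others away from it (PUT, GP, SN, the ventral tegmental area (VTA), CBC, OB, PIT and PA, the entorhinal and perirhinal cortex). The labels do not say whether a piece held the ventricle wall. Of 7 members 5 were called higher in the bordering sum, with 5.76% of all genes called and 2.31% higher. The test compares 2 sums over 8 animals and does not show a level shared by all bordering sub-regions. The log2 fold changes were 2.90 ± 0.23 for CFAP161, 2.39 ± 0.19 for CFAP100, 1.33 ± 0.05 for DNAH9, 1.25 ± 0.11 for TEKT1 and 1.08 ± 0.15 for FOXJ1, with adjusted p from 1.13e-08 to 9.18e-05. When CC was left out of the sum, a choice made after the values were seen, FOXJ1 (0.62) and TEKT1 (0.95) fell under the 2-fold limit, while CFAP161 (1.89), CFAP100 (1.66) and DNAH9 (1.40) were still called. Without CC and CN the values were 0.56, 0.68, 1.51, 1.32 and 1.52. Without Rhesus 3, 4 or 6 the same 5 were called, with FOXJ1 lowest at 1.01, 1.19 and 1.03. DNAH9 had means of 35.9 to 55.0 CPM in THA, DG, CA1 and CA3, and no fit left these out. In the rest of the bordering sub-regions its means were 6.89 to 17.9 CPM, against 6.03 to 16.2 CPM in the 8 others. FOXJ1 had 1.98 CPM in PON and 1.20 in CBV, which border a ventricle, and 5.40 in SN, which does not. CFAP161 had a count in 66 of 80 libraries of the 10 sub-regions, in 31 of 64 of the 8 others, in 12 of 16 of ACb and AMY, which touch a ventricle in part, and in 46 of the cortical ones, while 202 of those had none.

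**Figure D3:**
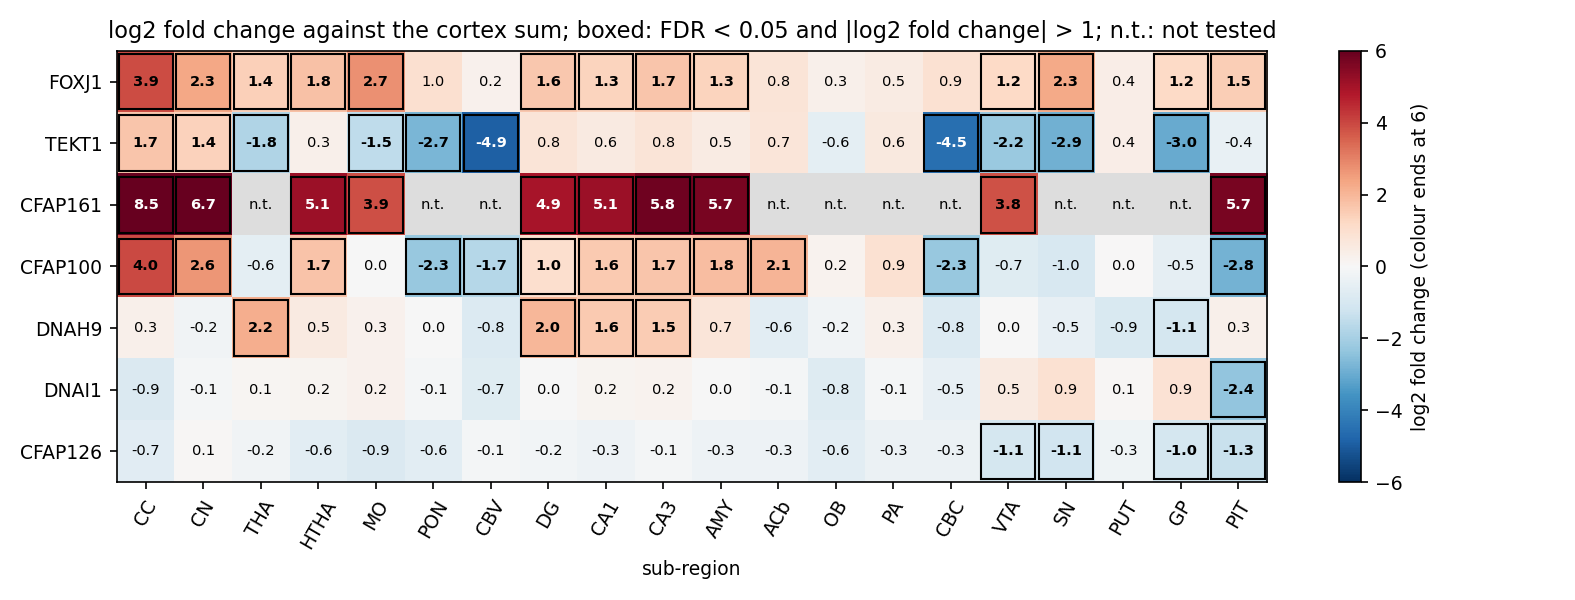
Log2 fold change (colour and printed value, colour scale ending at 6) of each member in each of 20 sub-regions against the cortical sum of the same 8 animals, where a box marks a call and n.t. a gene that the filter on low counts left out. FOXJ1 is called higher in 13 sub-regions and lower in 0, TEKT1 higher in 2 and lower in 8.

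In the other sub-regions against cortex the members did not move as a block. FOXJ1 was called higher in 13 of 20 sub-regions and lower in 0, and 2 of these calls, in CA1 and AMY, were lost without 1 animal. Each animal was left out in turn only in CC and CN, and selected animals or none elsewhere, so more calls may rest on 1 animal. CFAP161 was called higher in the 10 where it passed the filter. Under the detection rule CFAP161 was tested in all 20, called higher in 12 and lower in 0, the 12 including THA (3.59 ± 0.72, adjusted p = 0.000884) and ACb (3.38 ± 0.90, 0.00731), and not called in 8. CFAP100 was higher in 8 and lower in 4, TEKT1 higher in 2 and lower in 8, DNAH9 higher in 4 and lower in 1. DNAI1 was lower in 1 and CFAP126 lower in 4, and neither was higher in any.

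Around the temporal horn 4 of 7 members were called in CA1 (12.2% of all genes called), 4 in CA3 (12.7%) and 4 in DG (15.8%), in each the set FOXJ1, DNAH9, CFAP161 and CFAP100, all higher. FOXJ1 rose by 1.35 ± 0.32, 1.68 ± 0.22 and 1.60 ± 0.18, but in CA1 it fell to 0.998 and out of the calls without Rhesus 3, the highest there. It was 1.48 in DG without Rhesus 4. DNAH9 rose by 1.56 ± 0.08, 1.54 ± 0.12 and 2.00 ± 0.08. CFAP100 was only just over the limit in DG, and fell to 0.996 and out of the calls under the detection rule. In AMY 3 of 7 were called (10.1%), FOXJ1 at 1.34 ± 0.39, CFAP161 at 5.69 ± 0.58 and CFAP100 at 1.83 ± 0.27. Without Rhesus 10, the highest in AMY, FOXJ1 fell to 0.994 and was not called, while CFAP161 (5.40) and CFAP100 (1.64) were. In PA, beside them, edgeR called 0 of 6 (9.6%), with 5 at an unadjusted p under 0.05 and 0 called by DESeq2. The astrocyte sum was 4269 to 5950, 3504 to 5415 and 2990 to 5320 CPM in CA1, CA3 and DG. It was 3292 to 4561 CPM in AMY and 2968 to 3711 in cortex. The neuronal sum in that order was 9992 to 13249, 8751 to 11576, 6595 to 10121 and 9887 to 12592 CPM, against 13280 to 14140. The microglial sum was 90.1 to 165, 99.7 to 231, 71.7 to 143 and 84.8 to 148 CPM, against 54.1 to 84.3. The part of these cells was not tested.

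Around the third ventricle 3 of 6 members tested were called in THA (20.2% of all genes called). DNAH9 rose there by 2.16 ± 0.10 (adjusted p = 8.23e-10) and FOXJ1 by 1.42 ± 0.17, while TEKT1 fell by 1.81 on the log2 scale. In HTHA 3 of 7 were called (18.7%), FOXJ1 at 1.77 ± 0.27, CFAP161 at 5.14 ± 0.74 and CFAP100 at 1.72 ± 0.26. Without Rhesus 6 the 3 were called at 1.85, 5.32 and 1.90. The oligodendrocyte sum was 12171 to 24290 CPM in THA and 3430 to 35131 in HTHA, against 2575 to 3511 in cortex. The astrocyte sum was 3009 to 5028 and 4282 to 6918 CPM, against 2968 to 3711. The choroid plexus sum was 62.0 to 128 and 15.1 to 32 CPM, against 11.9 to 26. The neuronal sum was 8090 to 11325 and 4327 to 10274 CPM, against 13280 to 14140. The part of these cells was not tested.

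In MO, PON, CBV and CBC TEKT1 was called lower throughout, and FOXJ1 was called in MO only. In MO 3 of 7 were called (27.8% of all genes called), FOXJ1 higher by 2.72 ± 0.33, CFAP161 higher by 3.88 ± 0.63 and TEKT1 lower at -1.50 ± 0.27. Without Rhesus 6 the 3 were called at 2.60, 3.74 and -1.44. In MO the oligodendrocyte sum was 29735 to 93202 CPM against 2575 to 3511 CPM in cortex, and the astrocyte sum 5055 to 15671 CPM against 2968 to 3711. In PON the oligodendrocyte sum was 29667 to 52389 CPM. The part of these cells was not tested. In PON 2 of 6 were called (25.3%), both lower, TEKT1 at -2.75 ± 0.30 and CFAP100 at -2.28 ± 0.24. CBV (2 of 6, with 27.6%) and CBC (2 of 6, with 25.3%) likewise had TEKT1, at -4.91 ± 0.31 and -4.50 ± 0.30, and CFAP100, at -1.70 ± 0.30 and -2.27 ± 0.29, called lower. FOXJ1 was not called in PON (0.96 ± 0.25), CBV (0.25 ± 0.22, adjusted p = 0.338) or CBC (0.89 ± 0.21).

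In SN 3 of 6 were called (28.2%), FOXJ1 higher by 2.27 ± 0.20 (adjusted p = 1.52e-07), TEKT1 lower at -2.87 ± 0.30 and CFAP126 lower at -1.14 ± 0.11. Without Rhesus 4 the 3 were called at 2.22, -2.77 and -1.05. DNAI1 stood just under the limit there, at 0.91 ± 0.07. In VTA 4 of 7 were called (28.3%), FOXJ1 at 1.20 ± 0.22 and CFAP161 at 3.84 ± 0.65 higher, TEKT1 at -2.21 ± 0.24 and CFAP126 at -1.07 ± 0.08 lower. In GP 4 of 6 were called (35.1%), FOXJ1 higher by 1.21 ± 0.22, and TEKT1 (-3.01 ± 0.32), DNAH9 (-1.07 ± 0.17) and CFAP126 (-1.05 ± 0.14) lower. Without Rhesus 4 CFAP126 stood at -0.98 and was not called in GP, and FOXJ1 was called at 1.12. The oligodendrocyte sum was 16386 to 34051 CPM in SN, 42267 to 65757 in VTA and 49230 to 105726 in GP, against 2575 to 3511 in cortex. The astrocyte sum was 4973 to 9103, 1425 to 6493 and 5414 to 7891 CPM, against 2968 to 3711. The neuronal sum was 6223 to 10413, 6600 to 10509 and 2152 to 5901 CPM, against 13280 to 14140. The choroid plexus sum was 18.2 to 28.3, 24.8 to 71.7 and 18.4 to 23.6 CPM, against 11.9 to 26. The part of these cells was not tested.

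In PIT, an endocrine gland, 5 of 7 were called, where 45% of all genes were. FOXJ1 (1.50 ± 0.27) and CFAP161 (5.72 ± 0.46) were higher, and DNAI1 (-2.37 ± 0.13), CFAP100 (-2.82 ± 0.38) and CFAP126 (-1.32 ± 0.12) lower. In ACb 1 of 6 was called (17.4%), CFAP100 at 2.06 ± 0.16, and at 2.11 without Rhesus 10 and 11. In PUT edgeR called 0 of 6 (19.6%), with 3 at an unadjusted p under 0.05, and in OB 0 of 6 (23.5%), with 4. DESeq2 called 0 in both, and without Rhesus 3 edgeR called 0 in PUT.

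Within the cortex, levels were compared among its 31 sub-regions with the animal as a block, and a gene was called when the adjusted p was under 0.05 and the highest and lowest fitted values differed by more than 2-fold. Of 6 members tested 3 were called, with 24% of all genes called. CFAP100 spanned 2.30 on the log2 scale (adjusted p = 3.15e-15), from 2.43 ± 1.00 CPM in vmPFC to 0.498 ± 0.180 CPM in the anterior superior occipital gyrus (aSOG). TEKT1 spanned 1.11 (adjusted p = 7.27e-16), from 5.19 ± 1.76 CPM in vmPFC to 2.44 ± 0.856 CPM in the annectant gyri. FOXJ1 spanned 1.36 (adjusted p = 3.62e-05), from 1.50 ± 0.789 CPM in the cortex of the intraparietal sulcus to 0.567 ± 0.414 CPM in the anterior superior frontal gyrus. The order of FOXJ1 was not that of TEKT1, since in vmPFC FOXJ1 had 0.721 ± 0.506 CPM and ranked 49th of the 51 sub-regions. DNAH9, DNAI1 and CFAP126 spanned 0.38, 0.54 and 0.46.

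Age and sex were compared in CC, CN and the cortical sum, 4 animals against 4, with the other factor as a covariate and calls at an adjusted p under 0.1 and more than 2-fold. In CC edgeR called 1 of 7 members between females and males, with 0.139% of all genes called. CFAP100 had 5.70 to 21.1 CPM in the 4 females (mean 12.4) and 27.9 to 54.9 CPM in the 4 males (mean 42.5), with no overlap. Its log2 fold change, females against males, was -1.77 ± 0.26 (adjusted p = 0.0538). The call was lost when the age covariate was dropped (adjusted p = 0.237) and when Rhesus 2, 3, 7, 8, 10 or 11 was left out, with log2 fold changes between -1.84 and -1.59 and an adjusted p of up to 0.269. CFAP161 also did not overlap in CC, with means of 5.92 CPM in females and 12.7 CPM in males, and was not called. The other comparisons called 0 members by edgeR and 0 by DESeq2. These were females against males in CN (0.123% of all genes called) and cortex (0.0908%), each with 0 members at an unadjusted p under 0.05, and mid-aged against young in CC (0.0139%, 1 member at an unadjusted p under 0.05), CN (0.00681%, 0 members) and cortex (0%, 1 member). The last was TEKT1, whose cortical means were 2.39 to 3.04 CPM in the 4 mid-aged and 3.37 to 5.32 CPM in the 4 young animals, with no overlap and a log2 fold change of -0.84 ± 0.19 (edgeR adjusted p = 0.63).

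Animals differed more within a sub-region than the means show. In CC, Rhesus 11 had the lowest level of all 7 members, and Rhesus 8 the highest of 5. Rhesus 11 had 5.24 CPM of FOXJ1, 1.94 of TEKT1, 2.39 of CFAP161 and 5.70 of CFAP100, whereas Rhesus 8 had 22.8, 23.3, 13.4 and 54.9 CPM. In CN, Rhesus 3 had the highest level of FOXJ1 (15.6 CPM), TEKT1 (22.8), CFAP161 (7.09) and CFAP100 (29.2), while Rhesus 8, high in CC, had the lowest FOXJ1 (1.67), CFAP161 (0.351) and CFAP100 (2.20). Rhesus 3 also had the highest FOXJ1 in CC, at 22.9 CPM. In CA1 the highest FOXJ1, CFAP161 and CFAP100 were those of Rhesus 3 (11.3, 3.90 and 12.5 CPM), and in AMY those of Rhesus 10 (8.93, 2.74 and 10.6 CPM).

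The relation of FOXJ1 to each other member over the 8 animals was computed on log2(CPM + 1) within the 12 sub-regions that border a ventricle or touch it in part, 72 relations in all, a family chosen after the values were seen. By two-sided exact permutation tests 5 had an adjusted p under 0.05 for Pearson's r. In CN, r was 0.948 with CFAP161 (raw p = 9.92e-05, adjusted p = 0.00714 by exact permutation), 0.938 with CFAP100 (raw 0.000794, adjusted 0.0190) and 0.907 with TEKT1 (raw 0.00278, adjusted 0.04). Without the 2 animals farthest from the median of FOXJ1, r was 0.947, 0.789 and 0.756. In AMY r with CFAP161 was 0.922 (adjusted p = 0.0152 by exact permutation) and 0.953 without 2 animals. In CC r with CFAP126 was 0.913 (adjusted p = 0.04 by exact permutation) and 0.545 without 2 animals. By rank none of the 5 passed, with Spearman's rho of 0.952, 0.857, 0.786, 0.881 and 0.714 and adjusted p of 0.0821 to 0.377 by exact permutation. In CC r with TEKT1 was 0.899 (adjusted p = 0.0703 by exact permutation) and with CFAP161 0.774 (0.138), but without the 2 animals farthest from the median these were 0.0792 and -0.421, so both rest on those animals. Over the 12 sub-regions r was positive in 12 for CFAP161, 11 for CFAP100, 11 for DNAI1, 10 for TEKT1, 4 for DNAH9 and 2 for CFAP126. In HTHA and MO all 12 signs were the same without Rhesus 6. In ACb, without Rhesus 10 and 11, r with TEKT1 went from 0.0898 to -0.136 and the other 5 signs were the same.

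**Figure D4:**
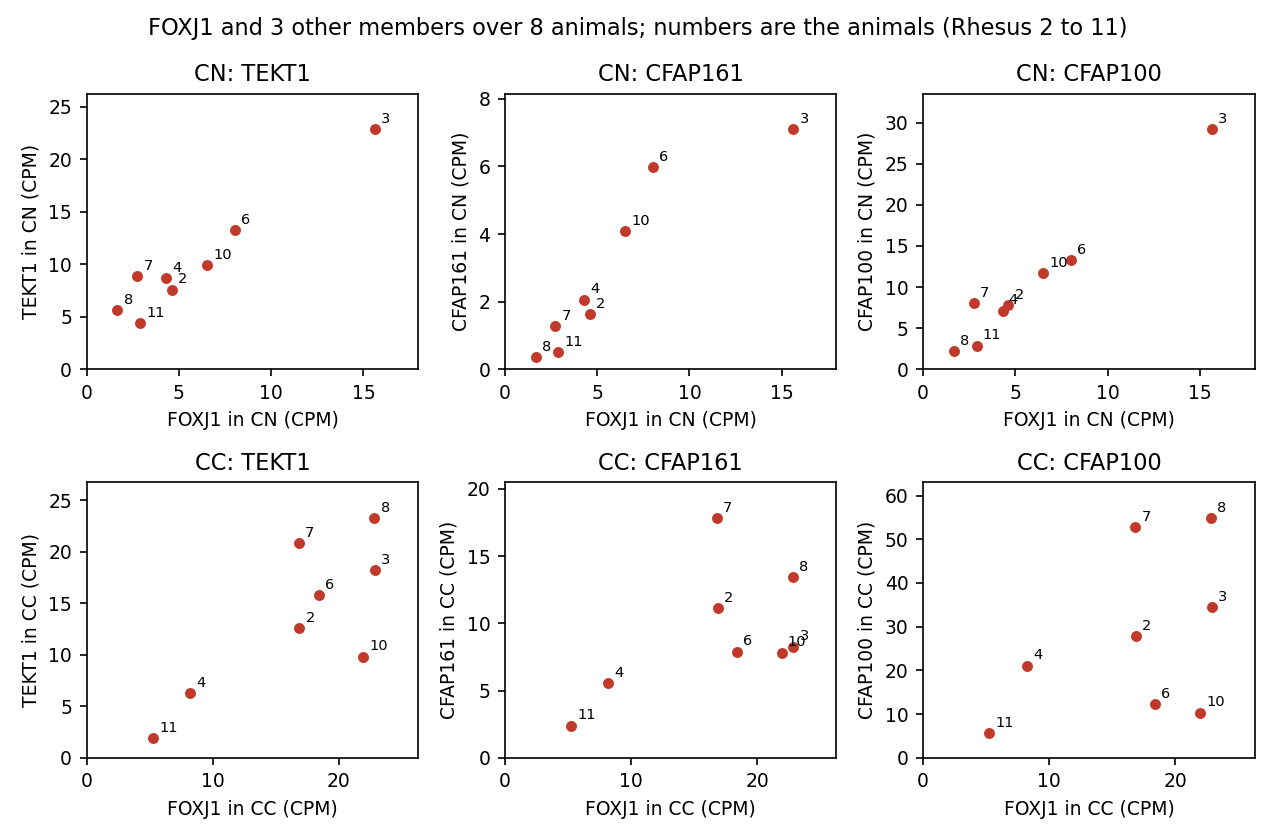
FOXJ1 (CPM, horizontal) against TEKT1, CFAP161 and CFAP100 (CPM, vertical) in CN and CC, 1 point per animal (n = 8), with labels giving the animal. In CN the points rise together up to Rhesus 3, and in CC Rhesus 11 lies lowest in all 3 panels.

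The other genes of the motile cilium gave the setting for the members. Of 119 such genes 98 had a row. In CC against cortex 45 were called higher, 6 lower and 44 neither, with 3 untested, and their median log2 fold change was 0.76 against -0.09 over all genes tested, of which 18.9% were called higher. The summed level of the 98 genes did not follow, and its median over animals was 1318 CPM in CC, 1403 in CN and 1461 in cortex, with 2108 in PON and 1898 in SN. In CN against cortex 39 were called higher and 4 lower (median 0.75 against -0.02), and in CN against PUT 21 of the 77 tested were called higher and 0 lower (median 0.51 against -0.01). Of 26 genes of the primary, non-motile cilium and of transport along it, 1 was called higher and 4 lower in CC against cortex, 1 and 0 in CN against cortex, and 1 and 0 in CN against PUT, where 44.5%, 18.4% and 4.34% of all genes were called.

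The motile cilium genes are given by class for CC against cortex, and differences between classes were not tested. In that comparison 44.5% of all genes tested were called and 18.9% were called higher. Of the dynein arm chains 8 of 13 were called higher and 0 lower, led by DNAH11, an outer arm heavy chain, with 38 CPM in CC against 1.29 in cortex (log2 fold change 4.71 ± 0.19), and DNAI2, an intermediate chain (3.89 ± 0.28). Of the central pair genes 7 of 11 were called higher, led by CFAP54 (20.4 ± 9.57 against 1.02 CPM, 4.11 ± 0.20) and HYDIN (28.8 ± 12.2 against 1.67 CPM, 3.98 ± 0.22). Of the genes for dynein assembly and docking 6 of 13 were called higher and 1 lower, led by PIH1D3 (7.01 ± 0.43) and ARMC4 (4.35 ± 0.31). Of the genes used as markers of multiciliated cells 12 of the 18 tested were called higher and 1 lower, led by CAPSL (6.87 ± 0.44) and ARMC3 (6.60 ± 0.27, 19.4 against 0.179 CPM). PIH1D3 had 1.87 CPM in CC and only 0.0113 in cortex, and CAPSL 5.96 and 0.0448. Like CFAP161 they passed the filter on low counts through CC, so these 2 calls, which the class counts include, are a description.

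The next classes stand beside the same shares of all genes, 44.5% called and 18.9% called higher. Microtubule inner proteins had 5 of 13 genes called higher and 1 lower, led by CFAP45 (4.21 ± 0.27) and RIBC2 (3.18 ± 0.27). Radial spoke and nexin link genes had 4 of 12 higher and 2 lower, with IQCD (2.24 ± 0.26) and RSPH4A (1.61 ± 0.29) the furthest. In the last class, of tether and other CFAP genes, 3 of 6 were higher and 1 lower, CFAP44 at 2.81 ± 0.21 and CFAP58 at -1.49 ± 0.30. Of the 9 other regulators of multiciliated cells tested 0 were called by edgeR. Among them were RFX2, at 0.86 ± 0.15 (adjusted p = 0.000202), and RFX3, at 0.29 ± 0.19 (0.179).

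Several of these genes were also called in CN against PUT, where ARMC3 stood at 3.57 ± 0.46, CFAP45 at 2.04 ± 0.37, HYDIN at 1.85 ± 0.28, CFAP54 at 1.66 ± 0.26, CFAP44 at 1.50 ± 0.27, RSPH4A at 1.41 ± 0.22 and CFAP58 at 1.3 ± 0.30. In PUT, ARMC3 and CFAP45 had means of only 0.451 and 0.756 CPM, so these 2 calls are a description. IQCD (0.90 ± 0.27) and DNAH11 (0.82 ± 0.28) were not called in CN against PUT, and DNAI2, CAPSL, PIH1D3, ARMC4 and RIBC2 were untested. CFAP58 is the one named gene with opposite calls, lower in CC against cortex and higher in CN against PUT.

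**Figure D5:**
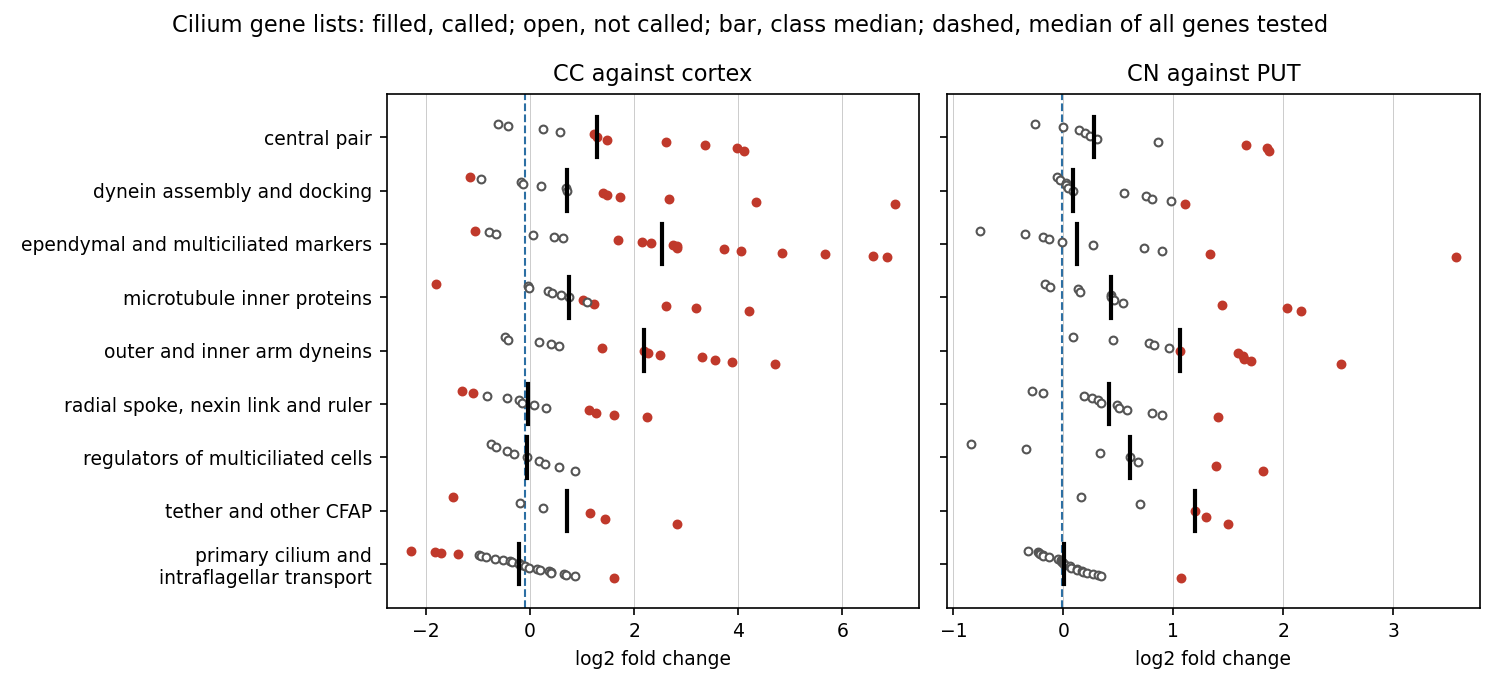
Log2 fold change of the motile cilium genes by class, in CC against cortex and in CN against PUT, each point 1 gene and filled points called. The horizontal scales of the panels differ, and in CN against PUT no filled point lies below 0.

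Over the 51 sub-regions some pairs of members had like patterns. On the mean over animals of log2(CPM + 1), Pearson's r and Spearman's rho were 0.826 and 0.772 for FOXJ1 with CFAP161, and 0.723 and 0.785 for TEKT1 with CFAP100. For CFAP161 with CFAP100 they were 0.762 and 0.123, and for FOXJ1 with CFAP100 0.519 and -0.0261, so that these relations did not hold by rank. They were not recomputed without the sub-regions with the highest levels. FOXJ1 and CFAP126 ran against each other, at -0.607 and -0.678. These values describe 51 points that share animals and libraries.

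The genes most like the members in their pattern were found by Pearson's r with the mean z score of the 7 members over the 51 sub-regions, among 13200 genes with a symbol and a level of at least 1 CPM in some sub-region. The 10 closest were DAW1 (r = 0.891), ZBBX (0.837), FNDC7 (0.818), C4H6orf118 (0.815), MORN3 (0.810), CCDC190 (0.808), FLACC1 (0.803), ANKUB1 (0.798), CFAP107 (0.793) and IL5RA (0.791). DAW1 is known for the assembly of outer dynein arms, and IL5RA encodes a subunit of a cytokine receptor. DAW1 had 3.33 CPM in CC, 2.85 in CN and 0.324 in cortex, and IL5RA 2.90, 1.07 and 0.131 CPM. Of the 10 genes, 2 were kept by Spearman's rho and 2 without CC and CN. Against the mean z score of FOXJ1, TEKT1, CFAP161 and CFAP100 alone, a choice made after the values were seen, 4 of the 10 were kept, and CFAP107 (r = 0.938), SLC47A2 (0.929) and ARMC3 (0.921) were the closest. The strand setting of the authors' counting is not given in the sources used here, and in the RefSeq gene table, which is of a later assembly than the files' Mmul 8.0.1, ENHO and FAM219A are the genes next to DNAI1, and UBALD2 overlaps FOXJ1. There DNAH9 overlaps 3 other features, CFAP100 another protein-coding gene and CFAP161 a transcribed pseudogene, while TEKT1 and CFAP126 overlap none. Over the 51 sub-regions DNAI1 had a Pearson's r of 0.753 and a Spearman's rho of 0.0631 with FAM219A, TEKT1 of 0.717 and 0.759 with FBXO39, and DNAH9 of 0.579 and 0.248 with ZNF18. FBXO39 had a mean of only 0.141 CPM. In the same order the values were 0.695 and 0.339 for DNAI1 with CNTFR, and 0.216 and 0.167 for CFAP100 with ZXDC. They were -0.236 and -0.172 for CFAP126 with SDHC. For FOXJ1 they were -0.465 and -0.351 with RNF157, and -0.0194 and -0.204 with EXOC7. ENHO and UBALD2 had no row by symbol. Whether reads of a neighbour or an overlapping feature entered a member's row was not tested.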

How the data were processed

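Gene counts of 408 RNA samples, 51 sub-regions from 8 animals, were analysed. The authors checked reads with FastQC 0.11.4, trimmed poor samples with Trim Galore 0.4.4, aligned with HISAT2 2.0.5 to Mmul 8.0.1 and counted Ensembl genes with HTSeq 0.6.1. They deposited raw read counts, with no normalization. Library preparation was strand-specific, but the strand and overlap options of counting are not given in the sources used here, so reads of overlapping genes may be shared. The midbrain (8 samples), which the study set aside for possible mixing with neighbouring tissue, and 33 chromatin accessibility samples were not analysed here.

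Counts were tested with edgeR 4.0.16 (R 4.3.3; TMM scaling, filterByExpr with a minimum count of 10, quasi-likelihood test, Benjamini-Hochberg adjustment), with the animal as a block, since samples with the same number come from the same animal. The cortex was the sum of the 31 cortical sub-regions of an animal. SE is the absolute log2 fold change over the square root of F. Depth is the total count per sample, 9517989 to 16679586 in CC and 8797322 to 11695718 in CN. The limit for 0 counts is 3 counts per library and covers counting error only. Alternatives were DESeq2 1.42.0, its size factors, the study's detection rule (a count above 1 in at least 3 samples), 1 fit over 21 units, no block, no covariate and each animal left out in CC and CN against cortex, CC against CN, CN against PUT and the age and sex comparisons. In other comparisons only animals that stood apart were left out. The script was tested on simulated data. Correlations and permutation tests used Python 3.11.15 and scipy 1.17.1.

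Named genes were the 7 members in every comparison, the 2 genes of each class of the motile cilium list with the largest absolute log2 fold change among those called in CC against cortex, the 10 genes most like the members, and the 2 highest genes in CC of each marker list, of which some are not reported here. RFX2 and RFX3, the choroid plexus and neuron libraries singled out, SLC17A7 and AGT were chosen after their values were seen. The members and lists were chosen with earlier results of these data known. Gene names were taken from the symbols in NCBI and RefSeq tables, which matched 17572 of 30807 identifiers. Some list genes had no row by symbol: 98 of 119 motile cilium, 26 of 30 primary cilium, 7 of 12 choroid plexus, 8 of 12 subventricular zone, 8 of 10 oligodendrocyte, 9 of 10 astrocyte, 10 of 10 neuron, 3 of 8 microglia and 9 of 10 vessel and meningeal genes were matched.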

Additional observations from a re-analysis of the deposited data

Results flagged for a closer look

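In 15 of 132 groups of 8 animals, 1 animal stood apart from the other 7 by a gap that is large for the group's range (above Dixon's critical value). Outside cortex a group needed a library with a count of at least 10. The cortical means had no such limit, and CFAP161, flagged there, had at most 6 counts in a cortical library. For normally distributed values chance flags about 1 in 20 such groups, and the rate for values like these was not measured.

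In the caudate nucleus (CN) Rhesus 3 was highest for FOXJ1 at 15.6 CPM, with 1.67 to 8.03 CPM in the others, and for CFAP100 at 29.2 CPM, with 2.20 to 13.3. Rhesus 11 was lowest there for DNAI1 at 77.8 CPM, with 114 to 145 in the others. In CA1 Rhesus 3 was highest for FOXJ1 at 11.3 CPM (others 1.22 to 4.82) and CFAP161 at 3.90 CPM (others 0.104 to 1.67). In the amygdala (AMY) Rhesus 10 was highest for FOXJ1 at 8.93 CPM (others 0.560 to 4.32) and TEKT1 at 9.16 CPM (others 3.40 to 5.79).

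Rhesus 4 was highest for FOXJ1 in the dentate gyrus (DG) at 7.39 CPM (others 1.67 to 4.09), in the globus pallidus (GP) at 5.36 CPM (others 1.37 to 3.07) and in the cerebellar cortex (CBC) at 5.62 CPM (others 1.06 to 2.41). It was also highest for DNAI1 in CBC at 187 CPM (others 58.2 to 116) and for CFAP100 in the ventral tegmental area (VTA) at 1.60 CPM (others 0.396 to 0.908). In GP Rhesus 3 was highest for TEKT1 at 1.20 CPM (others 0.159 to 0.491), and in the nucleus accumbens (ACb) Rhesus 6 for DNAH9 at 13.2 CPM (others 5.26 to 8.90). In cortex Rhesus 2 was highest for CFAP161 at 0.0866 CPM (others 0.00327 to 0.0346). The causes were not tested.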

How the results depend on the processing

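Under the listed alternatives 231 counts of members called stayed within 1.5 times and 14 did not. Fitting all 21 units together gave 2 members in the nucleus accumbens (ACb) against cortex (1 in the pairwise fit), 4 in the caudate nucleus (CN) against the putamen (PUT) (2 in the pairwise fit) and 2 in ACb against PUT (1 in the pairwise fit). The detection rule gave 2 in ACb against cortex and 2 in ACb against PUT, since it kept CFAP161. In females against males in CC the count of 1 became 0 with no covariate, and 0 to 1 with each animal left out. Of the 10 most alike genes, 2 were kept by Spearman correlation, 2 without CC and CN and 8 with log2(CPM + 0.1).

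Leaving the animals' block out of the pairing gave 4 members in CC against cortex and 4 in CN against cortex, as with it, 3 in CN against PUT and 3 in CBC against cortex, and changed no other count. Chosen after seeing the data, leaving CC, or CC and CN, out of the ventricle-bordering sum gave 3 members in place of 5, and leaving Rhesus 6 out of the medulla oblongata gave 3, as with it. Leaving out the animals whose PUT, ACb, substantia nigra or hypothalamus library held SLC17A7, also chosen after seeing the data, changed no count of members called. Leaving out single animals that stood apart in a member, chosen likewise, lost FOXJ1 in the amygdala (0.994 without Rhesus 10) and CA1 (0.998 without Rhesus 3) and CFAP126 in the globus pallidus (-0.98 without Rhesus 4), each then just under the 2-fold limit. Rank correlations of FOXJ1 with single members, also chosen after the data were seen, passed in none of the 5 relations. Of 1567 alternative values for single members 59 changed sign, of which 0 were called in either fit.

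Depth limits CFAP161, which the filter on low counts left out in 10 of 20 sub-regions against cortex and the detection rule kept in all 20, with 12 called higher. The labels do not say whether a piece of tissue held the ventricle wall, and the ventricle classes come from textbook anatomy.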
